A study of Mus musculus with 6 samples.

Results

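The cells described here are every cell of 1 single-cell library, called library A, and the cells of 2 other libraries, B and C, that held little RNA of Retnla and no RNA of 4 cell cycle genes. Libraries were told apart by the token that starts each barcode and lettered in the order in which the tokens first appear. Side 1 was all 16367 cells of library A. Side 2 was the cells of libraries B and C in which Retnla made up less than 0.1% of the unique molecular identifiers (UMIs, 1 for each RNA molecule counted) and in which Mki67, Top2a, Cdk1 and Ccnb1 had no UMI. Only cells with at least 1000 UMIs entered. The rule kept 1049 of the 5593 such cells of library B, called the B set, and 4789 of the 14594 such cells of library C, called the C set. In all 22205 of 36584 barcodes were used.

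The study's question was what interleukin 4 (IL-4) does to alveolar type II (ATII) cells, the surfactant-making cells of the lung, when the mice are young and when they are old. Its 3 expression libraries all come from mice of genotype IL4Ra WT, wild type for a chain of the IL-4 receptor, and all carry the label of a mixed treatment. One holds sorted cells used fresh (day 0, both ages), one cells after 13 days of culture (both ages) and one cells after 13 days of culture (young mice only). Cultures were alveolarspheres, balls of epithelium grown without serum or feeder cells, to which the cytokine at 10 ng/ml or phosphate-buffered saline was added on day 3, and live cells were sorted before loading. The cytokine is IL-4 in the title of the series and carries a different interleukin number in its design text. Each library pools animals, and the 3 tag libraries that record which cell came from which animal or treatment were not analysed here. Since no barcode token equals a label, libraries A, B and C are not assigned to a day, an age or a treatment, and whether library A is the fresh one cannot be told from the labels.

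ATII cells make and recycle pulmonary surfactant, a film of phospholipid and proteins kept in lamellar bodies until it is secreted, and they divide to renew the alveolus. Retnla encodes RELM alpha, a secreted protein that IL-4 and IL-13 induce in mouse macrophages and lung epithelium. Lyz2 encodes lysozyme and marks mouse ATII cells as well as macrophages. Hc encodes complement component C5. Gapdh encodes a glycolytic enzyme and belongs to the genes that hypoxia-inducible factors raise together when oxygen is low.

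The promoters of the genes with some of the widest differences are shown first, because the results below turn on glycolysis and heat shock genes. Each line holds the 250 bases before the start of transcription in RefSeq annotation of GRCm38.p6, written 5′ to 3′ on the strand of the gene, with matches in capitals. The first 3 mark ACGTG or GCGTG, the core letters bound by hypoxia-inducible factors, and the fourth marks GAANNTTC, the core of a heat shock element, on either strand.
Gapdh (chr6:125165774-125166023, minus strand): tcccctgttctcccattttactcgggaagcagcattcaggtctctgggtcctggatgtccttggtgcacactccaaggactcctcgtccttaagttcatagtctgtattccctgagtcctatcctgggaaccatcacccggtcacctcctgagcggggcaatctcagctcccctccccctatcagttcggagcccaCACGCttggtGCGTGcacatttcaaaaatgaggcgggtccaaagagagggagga
Pgk1 (chrX:106186850-106187099, plus strand): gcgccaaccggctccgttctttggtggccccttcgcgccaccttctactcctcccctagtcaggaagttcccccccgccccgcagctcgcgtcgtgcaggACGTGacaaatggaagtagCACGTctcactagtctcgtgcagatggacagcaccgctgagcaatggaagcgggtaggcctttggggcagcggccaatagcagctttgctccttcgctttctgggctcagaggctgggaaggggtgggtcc
Slc16a3 (chr11:120948817-120949066, plus strand): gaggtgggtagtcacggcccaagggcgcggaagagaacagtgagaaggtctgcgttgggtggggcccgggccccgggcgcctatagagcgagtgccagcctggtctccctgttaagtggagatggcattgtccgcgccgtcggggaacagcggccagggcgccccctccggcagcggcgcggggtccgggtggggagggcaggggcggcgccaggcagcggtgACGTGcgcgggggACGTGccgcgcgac
Hspa1a (chr17:34972157-34972406, minus strand): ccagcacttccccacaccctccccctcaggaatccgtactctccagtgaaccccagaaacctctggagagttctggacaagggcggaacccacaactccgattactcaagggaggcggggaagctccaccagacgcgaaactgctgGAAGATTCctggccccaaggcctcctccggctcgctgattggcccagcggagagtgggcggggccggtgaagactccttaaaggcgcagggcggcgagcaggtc
The hypoxia letters were found in 24 of the 28 glycolysis and hypoxia genes with a window (85.7%) and in 41.5% of all 27025 genes with a window. GAANNTTC was found in 6 of 9 heat shock genes with a window (66.7%) and in 7.73% of all genes with a window. The windows of Hspa1a and Hspa1b, both counted, are nearly identical. Other letters were searched too. An antioxidant motif was found in 6 of 16 NRF2 and metallothionein genes (37.5%, against 11.5% of all genes). A cyclic AMP motif was found in 2 of 19 immediate early genes (10.5%, against 1.77%). A sterol motif was found in 1 of 11 cholesterol genes (9.09%, against 1.22%). A match is a description of these letters and not evidence of binding.

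The cells of side 2 were chosen by their measured UMIs of Retnla and of the 4 cell cycle genes, so these are given as a description. In libraries A, B and C, 99.6%, 28.0% and 41.3% of cells were under the Retnla limit, and 98.9%, 65.4% and 76.3% had no UMI of the 4 cell cycle genes. Both conditions held in 98.5% of library A, in 18.8% of library B (exact binomial interval 17.7 to 19.8%) and in 32.8% of library C (32.1 to 33.6%). Cells of the B set and the C set just inside the limit, at 0.05 to 0.1% of UMIs, numbered 206 and 700, and cells just outside it, at 0.1 to 0.2% with no cell cycle UMI, numbered 156 and 222. Among the cells over the limit the median Retnla level was 1984, 11902 and 34640 counts per 1000000 UMIs (CPM) in libraries A, B and C. In the sets compared, Retnla (ENSMUSG00000061100, chromosome 16, 48842551 to 48844461, plus strand, GRCm38) held 27.4 CPM in library A against 284 CPM in the B set and 197 CPM in the C set. Retnla had 0 UMIs in 15679 cells of library A, in 243 cells of the B set and in 2579 cells of the C set, so the B set and the C set are low in Retnla but not free of it.

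**Figure D1:**
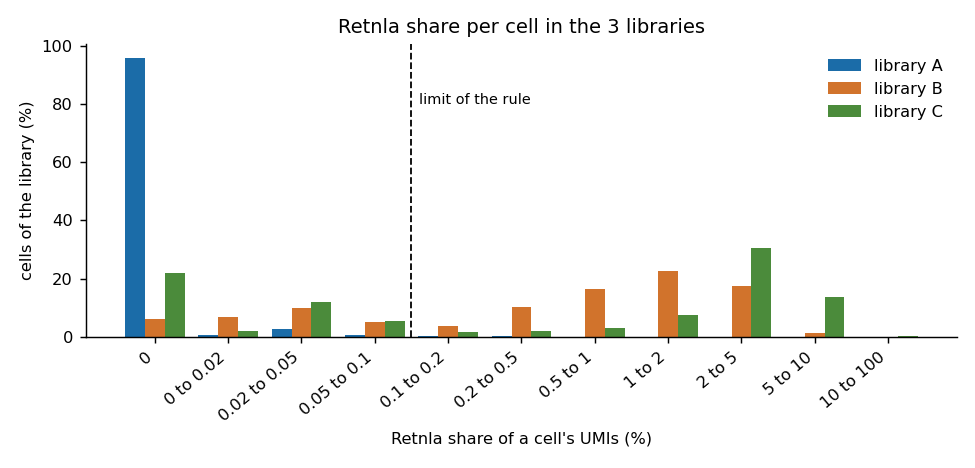
Share of cells (vertical axis, % of the cells of a library with at least 1000 UMIs) by the share of a cell's UMIs that came from Retnla (horizontal axis, %, in steps of unequal width), with 1 bar per library. Nearly all cells of library A lie in the lowest step, libraries B and C lie on both sides of the dashed limit of 0.1%, and the 4 steps left of the line hold 99.6%, 28.0% and 41.3% of the cells of A, B and C.

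Depth differed between the sets. The median cell held 3749 UMIs and 1390 genes in library A, 5707 UMIs and 1682 genes in the B set, and 2967 UMIs and 1066 genes in the C set, and the sets summed to 63658436, 6399889 and 14939035 UMIs. Mitochondrial transcripts made up a median of 2.44%, 0.657% and 0.616% of a cell's UMIs. Of the barcode sequences, 109 occurred in more than 1 library. Each side is 1 library, so no test was possible, no p-value is given, and all intervals (95%, exact) cover counting error only. Differences between the sets cannot be told apart from differences between the libraries as preparations. In summed counts, fewer cells that express a gene and less RNA per cell cannot be told apart, so shares of cells are given where they bear on a gene.

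Genes were compared as the log2 of the ratio of CPM with 1 CPM added to each side, and a gene was counted as different when it was at least 2-fold apart with at least 20 CPM on either side. Of 5811 genes measured in A against B, 1762 were higher in library A (30.3%) and 1149 lower (19.8%). Of 5849 measured in A against C, 1825 were higher (31.2%) and 1197 lower (20.5%). These shares are the background for every list below. The lists were chosen with earlier results of these data known, so their counts beside this background are descriptions and not tests. The B set and the C set were much closer to each other, with 99 of 4659 genes higher in the B set (2.12%) and 38 lower (0.816%). The median log2 fold of all measured genes was 0.17 for A against B, 0.19 for A against C and 0.00 for B against C. The balance of higher and lower genes rests on the scaling: 60.5% of the differing genes were higher in A than in B and 60.4% higher than in C, against 48.5% in each with trimmed-mean (TMM) factors and 75.3% and 74.7% when the 20 genes of highest CPM were left out of the totals. TMM scaling moved the median of all genes to -0.13 against B and -0.12 against C, and leaving out those 20 genes moved it to 0.57 and 0.55. Both comparisons share library A and are given side by side. Where 3 levels or 3 shares of cells follow one another below, they belong to library A, the B set and the C set in that order.

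**Figure D2:**
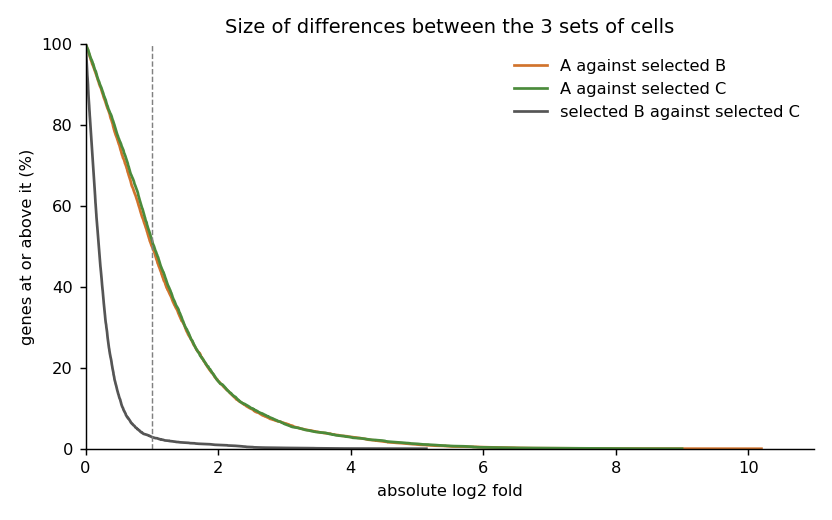
Share of measured genes (vertical axis, %) whose absolute log2 fold (horizontal axis) reached a given size, for library A against the B set, library A against the C set and the B set against the C set. At the dashed line, a 2-fold difference, the curves stand at 50.1%, 51.7% and 2.94% of genes.

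ATII marker genes were compared in all 3 sets with a list of 16. The list was chosen with earlier results of these data known and includes Lyz2 and Hc, described below. All 16 reached 20 CPM in library A and 15 did so in the B set and in the C set, where Hc was the one below. The markers summed to 345740, 127400 and 133816 CPM. Library A was higher in 10 of the 16 and lower in 0 against B, and higher in 11 and lower in 0 against C, with median log2 folds of 1.71 and 1.74.

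Lyz2 (ENSMUSG00000069516, chromosome 10, 117277331 to 117282321, minus strand) was the second most abundant transcript of library A, with 33575 CPM in library A against 644 CPM in the B set and 313 CPM in the C set. Its level in library A was 52.1-fold (interval 50.6 to 53.8) that of the B set and 107-fold (interval 104 to 110.3) that of the C set. After thinning every cell to 1000 UMIs, Lyz2 was detected in 99.9%, 18.6% and 11.9% of cells, against 100%, 33.7% and 20.2% at full depth. Lyz2 and Lyz1 are near copies: 28.4% of the 40-base words in the last 300 bases of the Lyz2 transcripts also occur in other genes. The paralog Lyz1 stood at 1232, 615 and 382 CPM, a narrower difference (log2 fold 1.002 against B and 1.69 against C).

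Hc (ENSMUSG00000026874, chromosome 2, 34983331 to 35061438, minus strand) held 1372 CPM in library A against 11.9 CPM in the B set and 3.48 CPM in the C set. Its level in library A was 116-fold (interval 92.3 to 147) that of the B set and 394-fold (interval 301 to 528) that of the C set. At 1000 UMIs per cell it was detected in 67.7%, 1.14% and 0.292% of cells, against 94.1%, 5.82% and 1.04% unthinned. A UMI in a cell can come from free RNA: in library A, Scgb1a1, a club cell gene, had a UMI in 42.1% of cells at 1000 UMIs and 69.5% unthinned. The part of free RNA in the shares of cells was not tested.

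Gapdh (ENSMUSG00000057666, chromosome 6, 125161715 to 125166467, minus strand) had the opposite order, with 299 CPM in library A against 11345 CPM in the B set and 9776 CPM in the C set. The B set exceeded library A by 37.9-fold (interval 37.3 to 38.5) and the C set by 32.7-fold (interval 32.2 to 33.2). It was detected at 1000 UMIs in 25.2%, 97.6% and 97.6% of cells, against 65.3%, 99.2% and 99.7% unthinned. The mouse genome holds many processed copies of Gapdh, and 69.4% of its end words occur in 251 other genes, so how the authors' counting divided its reads is uncertain.

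**Figure D3:**
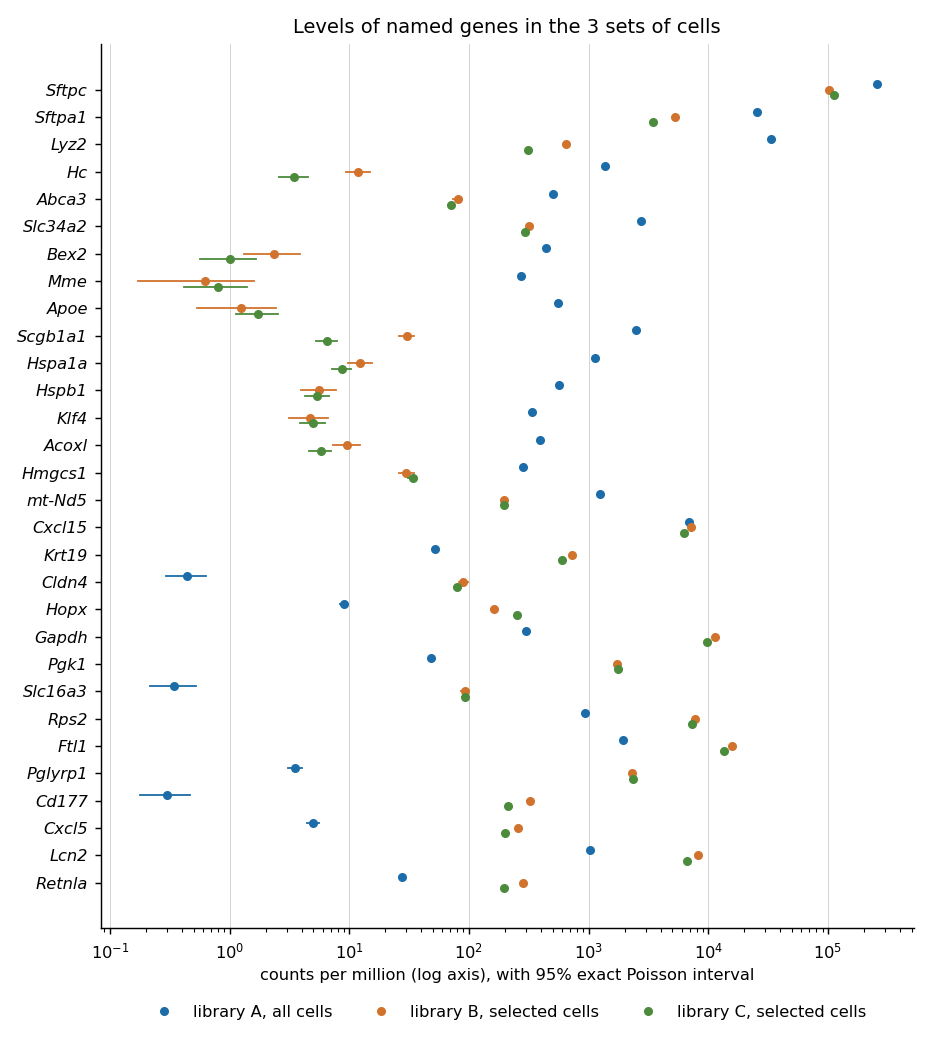
Levels of named genes (horizontal axis, CPM on a log scale) in library A, the B set and the C set, each point with its 95% exact Poisson interval. Library A lies to the right for surfactant, Lyz2, Hc, heat shock and lipid genes and to the left for glycolysis genes, Rps2 and Krt19. The points of the B set and the C set mostly lie close together, and Cxcl15 is at 6902, 7177 and 6312 CPM.

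Surfactant genes were higher in library A. In the list of surfactant synthesis, secretion and lamellar body genes, 22 members were measured in each comparison. Against the B set, 18 were at least 2-fold higher and 2 lower in library A (median log2 fold 2.23). Against the C set, 18 were higher and 1 lower (median 2.06). The background of higher genes was 30.3% and 31.2%. Sftpc, which encodes surfactant protein C, led all 3 sets with 255076 CPM in library A against 102345 CPM in the B set and 113239 CPM in the C set. Sftpa1, a collectin of the surfactant film, held 25320, 5284 and 3482 CPM, and Sftpb, the hydrophobic protein that spreads the film, held 7539.6, 2867 and 2124 CPM. Sftpd, the other collectin, was closer, with 4519, 3062 and 2964 CPM (log2 fold 0.56 against B and 0.61 against C). Abca3, the lipid pump of the lamellar body, was at 508, 80.9 and 70.8 CPM, and Slc34a2, a sodium-phosphate cotransporter, at 2758, 318 and 296 CPM. Cd36, a fatty acid receptor, stood at 833, 107 and 97.8 CPM. The widest difference of the list was that of Bex2, a small X-linked gene, at 439.7, 2.34 and 1.004 CPM (log2 fold 7.04 against B and 7.78 against C). Ctsh, a protease that trims surfactant protein precursors, went the other way with 639, 1447 and 1452 CPM. Cxcl15, a chemokine made by ATII cells, had no 2-fold difference (log2 fold -0.06 against B and 0.13 against C, a sign that depends on the scaling).

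The summed UMIs per cell of the surfactant list without Sftpc were mostly higher in library A, with some overlap between the sets. The median cell held 53, 14 and 13 UMIs after thinning to 1000 UMIs. In library A the middle 90% of cells spanned 35 to 74 UMIs, in the B set 2 to 35 and in the C set 3 to 29. Of the B set 0.286% of cells reached the median of library A, and of the C set 0 of 4789 did, which allows a share of up to 0.0626%.

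**Figure D4:**
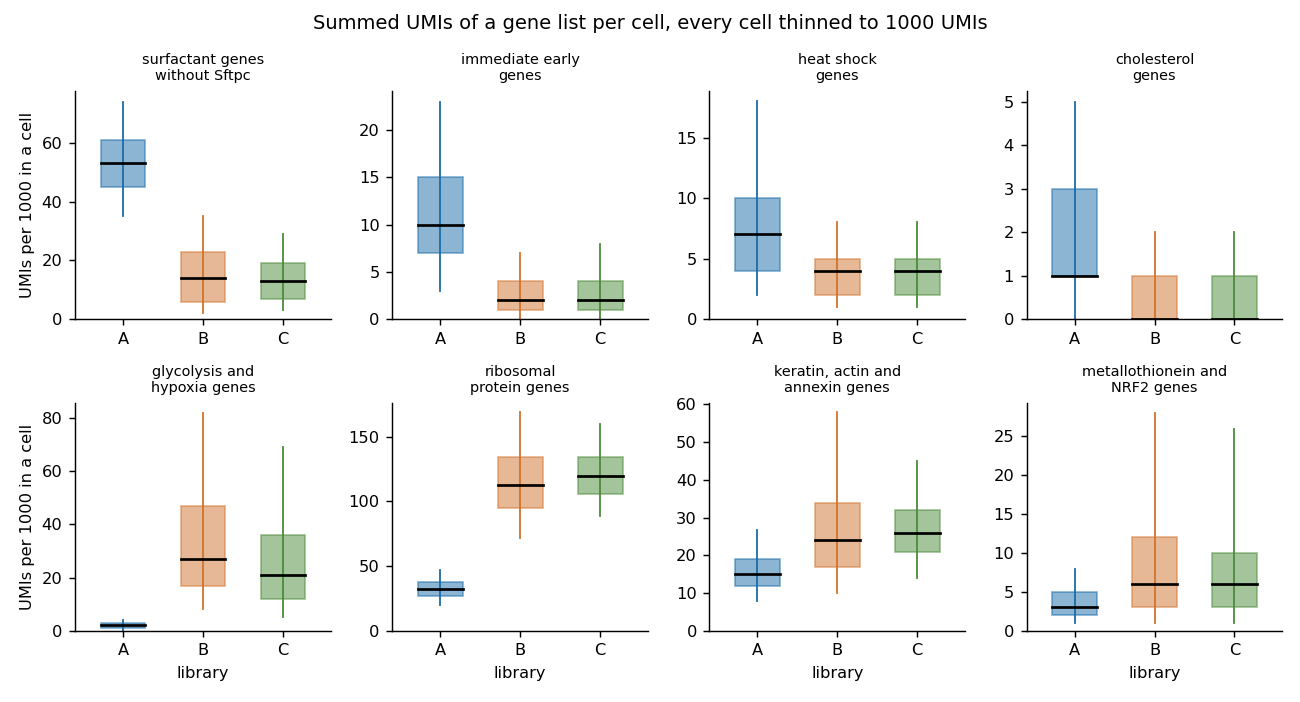
Summed UMIs of 8 gene lists per cell (vertical axes, UMIs per 1000) in the 3 sets (horizontal axis), every cell thinned to 1000 UMIs. Boxes span the quartiles with the median as a black line, and vertical lines span the 5th to the 95th percentile of cells. The glycolysis and hypoxia list has medians of 2, 27 and 21 UMIs in A, B and C and the ribosomal protein list 32, 113 and 120.

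Lipid synthesis genes, which supply the phospholipid of surfactant, were also higher in library A. Of the fatty acid and triglyceride synthesis list, 11 of its 14 measured members were at least 2-fold higher and 0 lower in library A than in the B set (median log2 fold 1.45), and 10 of 14 were higher and 0 lower than in the C set (median 1.23). Acly, which makes cytosolic acetyl-CoA, was at 307, 32.03 and 41.2 CPM. Acaca, which makes malonyl-CoA, was at 219, 20.9 and 20.2 CPM, and the fatty acid synthase gene Fasn at 479.6, 82.5 and 97.9 CPM. Acoxl, a relative of the acyl-CoA oxidases, had the widest difference with 389, 9.53 and 5.76 CPM. Of the cholesterol synthesis, uptake and export list, 14 of its 16 measured members were at least 2-fold higher and 0 lower in library A than in the B set (median log2 fold 1.85), and 13 of 16 were higher and 0 lower than in the C set (median 1.79). Hmgcs1, an early enzyme of the pathway, stood at 285, 30.00 and 33.9 CPM and Idi1, which acts later in it, at 218, 37.8 and 36.8 CPM. No member of either list was 2-fold lower in library A.

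Glycolysis and hypoxia response genes were the list that was lowest in library A. 22 of its 27 measured members were at least 2-fold lower in library A than in the B set (median log2 fold -3.24) and 21 of 27 lower than in the C set (-3.28), against a background of 19.8% and 20.5%. The list summed to 1880.4, 31539 and 25960 CPM. Pgk1, the enzyme after Gapdh in glycolysis, stood at 47.9, 1730 and 1774 CPM, 36.1-fold (interval 34.7 to 37.6) higher in the B set and 37.1-fold (interval 35.7 to 38.5) higher in the C set than in library A. Slc16a3, which exports lactate, was at 0.346, 92.7 and 92.6 CPM. Egln3, an oxygen-sensing prolyl hydroxylase induced by hypoxia-inducible factors, was at 0.157, 51.1 and 53.6 CPM. Eno1, the enolase gene, stood at 1.96, 87.03 and 259.6 CPM, but 87.3% of its end words occur in other genes. Pfkfb4, which controls entry into glycolysis, was the one member 2-fold higher in library A in both comparisons, at 48.9, 11.7 and 12.1 CPM. The first 3 promoters shown above belong to members of this list. Of library A 0 of 16367 cells reached the median of the B set or of the C set for the summed list at 1000 UMIs, which allows a share of up to 0.0183%, and 99.6% and 99.5% of cells of those sets reached the median of library A. Pgk1 alone was detected in 4.705%, 74.3% and 71.4% of cells, against 16.9%, 96.9% and 90.6% unthinned.

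Respiratory chain genes divided by the genome that encodes them. Of the nuclear list, 18 of 28 were 2-fold lower in library A than in the B set (median log2 fold -1.20) and 18 of 28 lower than in the C set (-1.12), with 0 higher. Cox5a, a subunit of cytochrome c oxidase, stood at 177, 686 and 627 CPM, and Cox7a2, another of its subunits, at 309, 910.0 and 1122 CPM. Of the protein-coding genes of the mitochondrial genome, 10 of its 11 measured members were at least 2-fold higher and 0 lower in library A than in the B set (median log2 fold 1.54), and 9 of 11 were higher and 0 lower than in the C set (median 2.35). The complex I gene mt-Nd4 was at 2704, 465 and 528 CPM and mt-Nd5 at 1246, 196 and 196 CPM. The large mitochondrial ribosomal RNA mt-Rnr2 was the seventh most abundant transcript of library A, at 7438, 1529 and 870.3 CPM. Summed UMIs per cell gave the same order, with medians of 6, 14 and 14 UMIs for the nuclear list, and 15, 4 and 5 UMIs for the mitochondrial list. The mitochondrial share of UMIs, given above, includes the genes of the mitochondrial list and mt-Rnr2, so it is not a separate result. The cause of the difference was not tested.

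Ribosomal protein genes were lower in library A as a group. 26 of 30 were at least 2-fold lower than in the B set (median log2 fold -1.83) and 24 of 30 lower than in the C set (-1.998), with 0 higher. All genes of cytosolic ribosomal proteins together took 7.24% of the UMIs of library A, 24.9% of the B set and 26.7% of the C set. Rps2 stood at 926, 7804 and 7239.6 CPM, Rpl32 at 1397, 7196 and 7672 CPM and Rps18 at 1095, 4943 and 5590 CPM. Ribosomal protein genes have many processed copies, and 78.01%, 40.7% and 41.5% of the end words of these 3 occur elsewhere, so single values are less certain than the group. Genes of the nucleolus, translation and growth were lower in 7 of 16 against B and 7 of 16 against C and higher in 2 of each. Eif4ebp1, a repressor of cap-dependent translation, stood at 9.99, 497 and 312 CPM, Srm, spermidine synthase, at 5.81, 47.5 and 37.8 CPM and Npm1, a nucleolar protein, at 380.1, 1395 and 1296 CPM. Ccnd2, a G1 cyclin, was the widest exception with 62.8, 1.72 and 5.09 CPM.

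**Figure D5:**
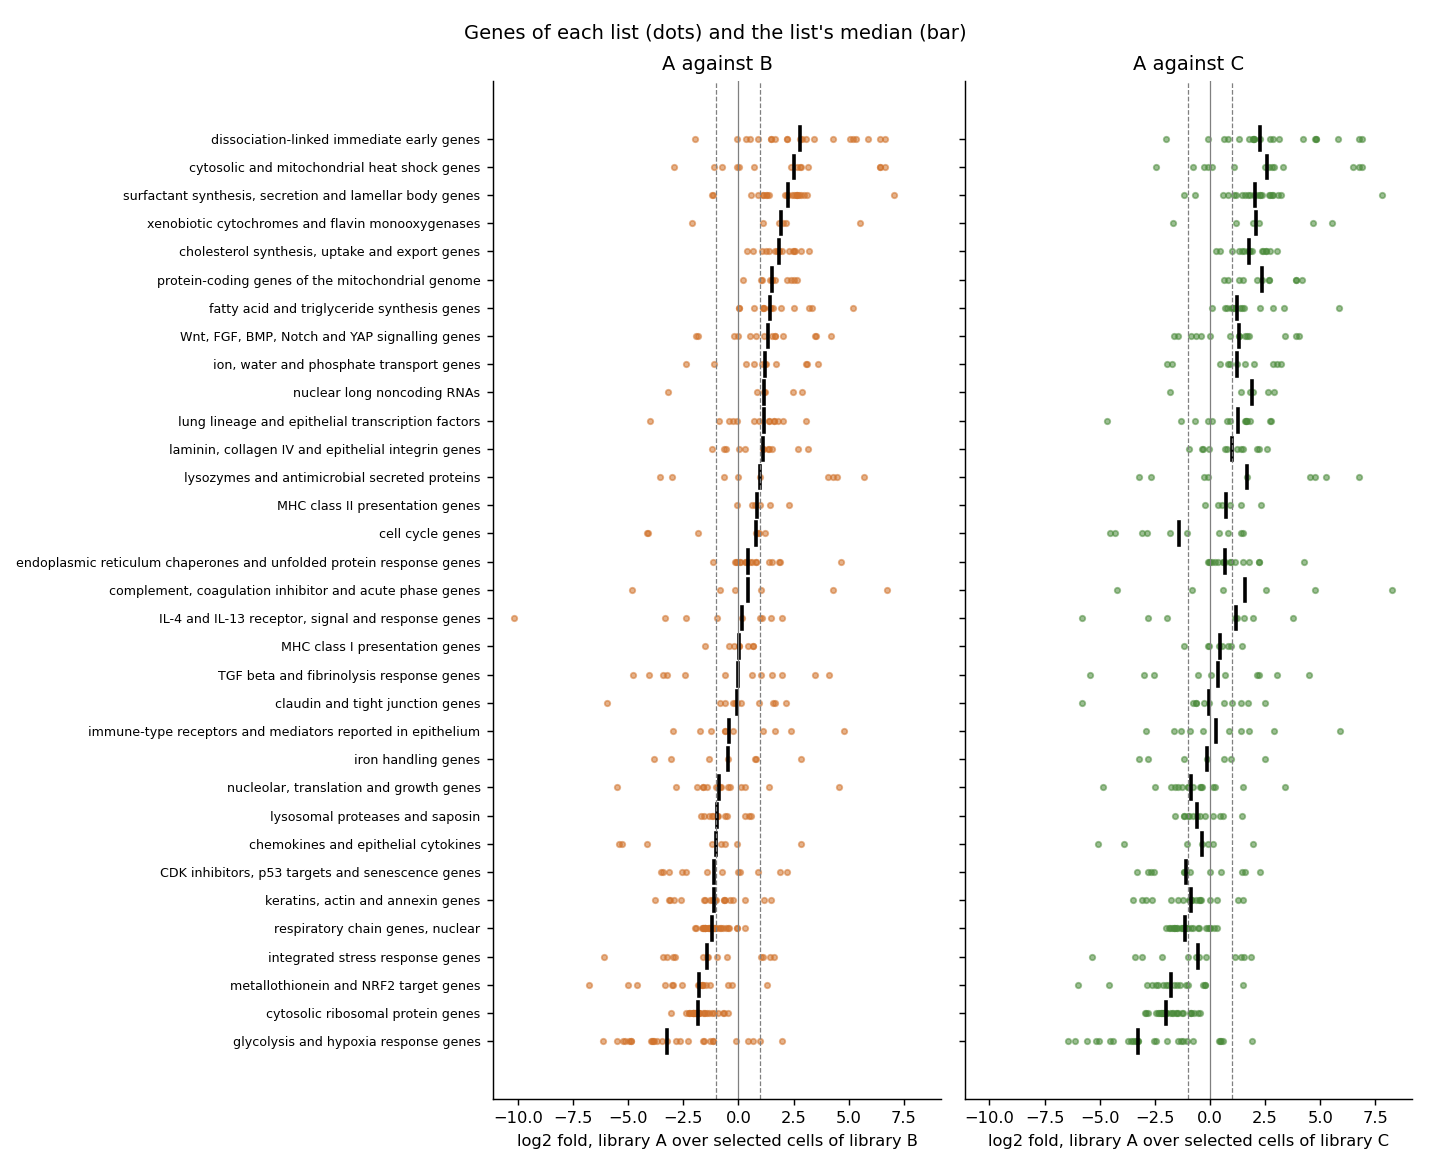
Log2 fold of library A over the B set (left) and over the C set (right) on the horizontal axis for every measured member of each gene list (vertical axis). Each dot is a gene, the black bar is the median of its list, and dashed lines mark 2-fold differences; the glycolysis and hypoxia list lies lowest, with medians of -3.24 and -3.28.

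Immediate early genes, which are transcribed within minutes of a stimulus and are known to rise when tissue is dissociated, were higher in library A. Of that list, 16 of its 21 measured members were at least 2-fold higher and 1 lower in library A than in the B set (median log2 fold 2.78), and 17 of 21 were higher and 1 lower than in the C set (median 2.27). Klf4, a zinc finger transcription factor, stood at 337, 4.69 and 4.95 CPM. Nr4a1, an orphan nuclear receptor, was at 346, 8.59 and 11.4 CPM. Ier3 was the one member 2-fold lower, at 158, 621 and 639.5 CPM. Of the heat shock genes, 8 of its 14 measured members were at least 2-fold higher and 2 lower in library A than in the B set (median log2 fold 2.51), and 9 of 14 were higher and 1 lower than in the C set (median 2.59). The inducible HSP70 genes Hspa1a and Hspa1b, which the immediate early list also holds, stood at 1138, 12.3 and 8.64 CPM and at 435, 3.28 and 3.08 CPM. Hspa1a, whose promoter is shown above, was detected at 1000 UMIs in 46.3%, 1.72% and 0.606% of cells, against 70.7%, 6.39% and 1.77% unthinned. Hspb1, a small heat shock protein, was at 568, 5.63 and 5.42 CPM, and Hsph1, a co-chaperone of HSP70, at 49.4, 4.69 and 4.15 CPM. Cryab, another small heat shock protein, was lower in library A at 45.7, 347 and 253 CPM.

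Stress pathways of the endoplasmic reticulum and of amino acid supply showed smaller or mixed differences. Among chaperones and unfolded protein response genes, 5 of its 18 measured members were at least 2-fold higher and 1 lower in library A than in the B set (median log2 fold 0.45), and 6 of 17 were higher and 0 lower than in the C set (median 0.67), which is near the background. Hspa5, the chaperone BiP, stood at 969.9, 342 and 282 CPM, and its partner Dnajb9 had the widest difference with 308, 11.2 and 14.9 CPM. Integrated stress response genes were lower in 8 of 14 and higher in 4 against B, and lower in 4 and higher in 4 of 12 against C. The lower members were led by enzymes of serine and asparagine synthesis: Phgdh, the first step from glycolysis to serine, stood at 0.864, 126 and 74.4 CPM, Psat1, the next step, at 4.56, 58.8 and 57.7 CPM, and Asns at 7.52, 65.00 and 37.3 CPM. Of the end words of Phgdh 57.1% occur in other genes. Shmt2, which moves serine carbon into the mitochondrial folate cycle, was at 2.09, 21.7 and 24.8 CPM.

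Detoxification genes divided by class. Metallothioneins and NRF2 targets, the antioxidant genes switched on by oxidative stress, were lower in library A in 14 of 17 against B (median log2 fold -1.78) and in 13 of 18 against C (-1.76). The glutathione transferases led: Gsto1 stood at 3.91, 158 and 117 CPM, Gsta4 at 118, 1172 and 744 CPM and Gstm1 at 83.1, 495 and 452 CPM. Gsta1 had 0.0628, 115 and 66.1 CPM, but 86.6% of its end words are shared with 3 other genes. Gclc, which limits glutathione synthesis, was the one member higher in library A, at 963, 389.5 and 340.2 CPM. Xenobiotic cytochromes, flavin monooxygenases and related enzymes went the other way in 5 of 6 measured genes in each comparison. Fmo2, the flavin monooxygenase of the lung, had 45.3 CPM in library A and 0 UMIs in both other sets, which with a limit of 3 counts per set makes it at least 96.6-fold higher than in the B set and at least 225-fold higher than in the C set. Ces1d, a carboxylesterase, was at 454, 99.8 and 95.6 CPM. Cbr2, a lung carbonyl reductase outside the lists, stood at 2758, 12.03 and 68.01 CPM (log2 fold 7.73 against B and 5.32 against C).

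Iron handling genes included some of the most abundant transcripts of the B set and the C set. Ftl1, the ferritin light chain, stood at 1937, 15909 and 13514 CPM, and Fth1, the heavy chain, at 3227, 8261 and 7379 CPM. Trf, transferrin, was at 168, 2424 and 1592 CPM, while its receptor gene Tfrc was higher in library A at 155, 21.1 and 26.8 CPM. Of the list 3 of 7 were lower and 1 higher in each comparison. Ftl1 and Trf share 84.4% and 62.2% of their end words with other genes.

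Secreted defence proteins differed in both directions. In the list of lysozymes and antimicrobial proteins, 5 of its 9 measured members were at least 2-fold higher and 2 lower in library A than in the B set (median log2 fold 1.002), and 5 of 9 were higher and 2 lower than in the C set (median 1.69). Beside Lyz2, library A was higher in Rnase4, at 978, 43.6 and 24.3 CPM, and in its neighbour Ang, angiogenin, at 268, 15.3 and 10.4 CPM. Hp, which binds haemoglobin, was at 758, 37.8 and 27.04 CPM. Lower in library A were Lcn2, which binds bacterial siderophores, at 1027, 8220 and 6594 CPM, and Slpi, an inhibitor of leukocyte protease, at 84.95, 1009 and 802 CPM. Pglyrp1, which binds bacterial peptidoglycan, was outside the lists and had the largest difference in that direction over both comparisons among genes of at least 50 CPM, at 3.55, 2292 and 2333 CPM. It was detected at 1000 UMIs in 0.293%, 66.6% and 71.8% of cells, against 1.17%, 92.1% and 87.5% unthinned. Cd177, a surface protein known from neutrophils, stood at 0.298, 321 and 212 CPM, though 66.3% of its end words are shared. Neutrophil markers summed to only 1.05, 3.28 and 1.27 CPM.

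Chemokine, complement and interferon genes were few at 20 CPM. Cxcl5, which attracts neutrophils, stood at 5.01, 258 and 201 CPM, and Cxcl3 at 2.65, 139 and 53.95 CPM. Il33, an alarmin stored in the nucleus of ATII cells, went the other way with 416, 58.1 and 107 CPM. The chemokine list as a whole had 4 of 8 genes lower against B and 3 of 7 against C. Saa3, an acute phase protein, was at 1.52, 69.7 and 45.4 CPM, and C3, the central complement component, at 90.5, 43.8 and 14.7 CPM. Without the Retnla limit the log2 fold of C3 against B, 1.03 here, is -0.39. Interferon-stimulated genes were lower in 4 of 5 against B and 2 of 3 against C. Bst2, tetherin, stood at 31.7, 224 and 173 CPM, and Ifitm3 at 5.31, 117 and 58.9 CPM. MHC class II genes, which ATII cells are known to express, were higher in library A in 2 of 6 in each comparison, close to the background. H2-Aa was at 781, 157 and 155 CPM and H2-Eb1 at 326, 119 and 123 CPM. MHC class I genes had 7 of 8 members within 2-fold against B.

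IL-4 and IL-13 response genes, the pathway of the study, had no common direction. Of the list, 3 of its 9 measured members were at least 2-fold higher and 3 lower in library A than in the B set (median log2 fold 0.17), and 5 of 8 were higher and 3 lower than in the C set (median 1.17). Retnla belongs to the list and was used by the rule, and genes that follow it from cell to cell are not independent of that choice. Without the Retnla limit the median against C is -0.90, and the median against B is -0.03 with TMM scaling and -1.58 among genes of at least 100 CPM. Chil4, a chitinase-like protein of type 2 inflammation, stood at 0.1100, 1304 and 60.7 CPM. Chia1, the acidic chitinase, was at 370.4, 328 and 26.3 CPM, so library A was within 2-fold of the B set and 14.1-fold (interval 12.7 to 15.6) above the C set. Without the Retnla limit its log2 fold against C, 3.77 here, is -1.36. Stat6, which carries the receptor signal, was at 25.5, 5.78 and 8.17 CPM. Slc26a4, the anion exchanger pendrin, was at 12.1, 66.4 and 49.8 CPM.

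Transitional markers were mostly lower in library A, and ATI markers were mixed. Of the markers of the transitional state, which ATII cells pass through on the way to flat ATI cells, 11 of 15 were lower in library A against B and 9 of 15 against C (medians -2.42 and -1.63). Cldn4, a claudin of that state, stood at 0.4399, 89.8 and 79.7 CPM. Krt19 was at 52.00, 728 and 601 CPM and Krt7 at 66.2, 569 and 416 CPM. Other keratins of the list were closer. Krt18 had log2 folds of -1.07 against B and -0.62 against C. Krt8 was detected at 1000 UMIs in 36.5%, 47.7% and 45.6% of cells, against 73.3%, 92.7% and 78.4% unthinned. Areg, a ligand of the EGF receptor, was higher in library A at 552, 56.6 and 64.8 CPM. Cldn4 was detected at 1000 UMIs in 0.0367%, 8.67% and 7.601% of cells, against 0.141%, 30.5% and 18.7% unthinned, so most cells of each set had no UMI of it. ATI markers were lower in library A in 3 of 11 against B, which is near the background, and 5 of 12 against C. Within 2-fold were 7 against B and 6 against C, and 1 was higher in each. The ATI marker Ager was detected at 1000 UMIs in 44.9%, 39.3% and 48.0% of cells, against 83.0%, 76.0% and 75.5% unthinned. Hopx, a homeodomain protein of ATI cells, stood at 9.03, 162 and 252 CPM, Akap5 at 3.22, 73.1 and 134 CPM and Aqp5, a water channel, at 561, 1201 and 1840.2 CPM. Cldn18, the lung claudin, was higher in library A at 691, 229 and 256 CPM.

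Cytoskeletal genes were divided. Keratin, actin and annexin genes were lower in library A in 12 of 20 against B and 7 of 20 against C, and higher in 2 of 20 in each. Tubb5, a beta tubulin, stood at 63.2, 563 and 479 CPM, and Tmsb10, which binds actin monomers, at 81.4, 502 and 696 CPM. Tmsb4x, among the 5 most abundant transcripts of each set, was within 2-fold at 7896, 12185 and 14371 CPM. Ezr, which ties the membrane to actin, was higher in library A at 344, 154 and 142 CPM. Tight junction genes showed 3 of 11 higher and 1 lower in each comparison, and Cdh1, E-cadherin, stood at 242, 53.1 and 42.4 CPM. Laminin, collagen IV and integrin genes were higher in library A in 7 of 12 against B and 6 of 12 against C. Col4a3 and Col4a4, chains of the alveolar basement membrane, stood at 24.3, 1.88 and 3.28 CPM and at 31.9, 4.06 and 6.02 CPM.

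Among regulators of lung identity, lung lineage transcription factors were higher in library A in 7 of 14 in each comparison, and lower in 1 against B and 2 against C. Foxa1, a forkhead factor of lung epithelium, stood at 53.9, 5.47 and 7.16 CPM, Cebpd at 256, 74.1 and 38.4 CPM and Etv5, which maintains ATII identity under FGF signalling, at 253, 61.3 and 79.4 CPM. Wnt, FGF, BMP, Notch and YAP genes were higher in 8 of 14 against B and 8 of 15 against C, with 2 lower in each. Nkd1, a feedback inhibitor and target of Wnt signalling, stood at 90.2, 3.91 and 5.02 CPM, Bmp2 at 53.4, 3.75 and 2.34 CPM and Notch1 at 25.8, 1.41 and 1.54 CPM. Sp5, another Wnt target, was lower in library A at 17.2, 67.7 and 55.96 CPM, and so was Id1, a BMP target, at 16.1, 60.6 and 45.2 CPM. The 2 Wnt targets thus stood in opposite order.

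TGF beta and growth arrest genes were divided. Of TGF beta and fibrinolysis response genes, 5 of its 12 measured members were at least 2-fold higher and 5 lower in library A than in the B set (median log2 fold 0.00), and 4 of 10 were higher and 3 lower than in the C set (median 0.38). Tgfb2 stood at 0.5498, 41.4 and 66.3 CPM and Timp2, an inhibitor of matrix metalloproteinases, at 12.2, 124 and 105 CPM. Tgfbi, a secreted TGF beta target, went the other way with 24.5, 0.469 and 0.134 CPM, and so did Skil, a repressor of SMAD signalling, at 132, 11.1 and 15.2 CPM. CDK inhibitors, p53 targets and senescence genes were lower in library A in 6 of 12 against B and 7 of 13 against C, with medians of -1.09 and -1.07, the second of which is 0.19 among genes of at least 100 CPM. Cdkn2b, which encodes the cell cycle inhibitor p15, was at 8.14, 80.3 and 63.4 CPM, Bax, a p53 target that drives apoptosis, at 36.7, 223 and 241 CPM and Phlda3 at 4.07, 56.6 and 49.2 CPM. Btg2, which both the immediate early list and this one hold, was higher in library A at 281, 60.6 and 57.6 CPM.

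The rule set the 4 cell cycle genes to 0 in the B set and the C set, so these are no result. Genes that follow them from cell to cell are not independent of that choice, which was not made in library A. In library A, where the rule did not apply, Mki67 held 2.89 CPM, Top2a 2.97 CPM, Cdk1 0.723 CPM and Ccnb1 0.597 CPM. Among the other cell cycle genes some were lower and some higher in library A. Ube2c, which acts in mitosis, stood at 1.82, 46.9 and 55.4 CPM, Cenpa, the centromere histone, at 0.503, 25.5 and 33.5 CPM and H2afz at 489, 1737 and 1698 CPM. Pcna, a replication clamp, was higher in library A at 35.2, 14.8 and 12.5 CPM. Without the cell cycle limit its log2 fold was under 2-fold in both comparisons. It fell from 1.19 to 0.34 against B and from 1.42 to 0.87 against C. Ube2c and Cenpa were thus more abundant in cells chosen for having no UMI of the 4 genes than in library A. The cell cycle list had 3 of 7 measured genes lower and 1 higher against B, and 6 of 10 lower and 2 higher against C, with medians of 0.78 and -1.43. The first median is negative with every other scaling of the totals tried (-0.73, -0.60 and -1.37), and the second is 1.13 when cells with a UMI of any of 10 cell cycle genes are left out.

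Transport genes were higher in library A in 7 of 11 against B and 6 of 11 against C. Slc12a2, the sodium-potassium-chloride cotransporter, stood at 352, 40.9 and 47.2 CPM, and Slc4a5, a bicarbonate cotransporter, at 31.7, 1.72 and 2.95 CPM. Lysosomal genes were mostly within 2-fold, and Ctsd, the main aspartic protease, stood at 105, 338 and 242 CPM. Among nuclear long noncoding RNAs Malat1 was at 19055, 8354 and 7165 CPM and Kcnq1ot1 at 104, 13.1 and 15.9 CPM.

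Without regard to lists, the genes with the largest differences over both comparisons at 50 CPM or more included several that were nearly absent from one side. Apoe, a lipid carrier that macrophages and ATII cells make, stood at 555, 1.25 and 1.74 CPM. It was detected at 1000 UMIs in 37.1%, 0.191% and 0.188% of cells, against 70.3%, 0.667% and 0.543% unthinned. Cst8, a cystatin, had 169 CPM in library A and 0 UMIs in the other sets, at least 359-fold and 839-fold higher with a limit of 3 counts per set. Mme, the membrane peptidase neprilysin, was at 272, 0.625 and 0.803 CPM. Pon1, a serum esterase, had 103 CPM in library A and 1 and 11 UMIs in the B set and the C set. Itih4 had 110.5 CPM in library A and 3 and 7 UMIs. In the other direction, Pglyrp1 and Cd177 led, and several genes named above, such as Slc16a3, Gsta1 and Cldn4, followed. Also among the largest were Tmem213, at 9.83, 477 and 683 CPM, and Pf4, the chemokine platelet factor 4, at 9.02, 448 and 341 CPM. Selenom, a selenoprotein of the endoplasmic reticulum, was at 0.503, 67.8 and 78.99 CPM and Tspan13, a tetraspanin, at 0.534, 53.1 and 54.6 CPM.

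Markers of other cell types were summed beside these results. Airway secretory (club) markers summed to 3339, 110.3 and 60.4 CPM, led in library A by Scgb1a1, the club cell secretoglobin, at 2503, 30.2 and 6.49 CPM. In the B set and the C set the highest of them was Hp, whose levels are given above. Of the 10 club markers, 3 reached 20 CPM in library A, 2 in the B set and 1 in the C set, and 2, 4 and 3 were at 0. Scgb1a1 was detected at 1000 UMIs in 42.1%, 2.57% and 0.522% of cells, against 69.5%, 6.196% and 1.11% unthinned. Ciliated cell markers summed to 542, 211 and 156 CPM, with Sec14l3 at 82.6, 3.59 and 5.36 CPM. Of them 4 reached 20 CPM in library A and 1, the tubulin gene Tubb4b, did so in the B set and in the C set. The log2 fold of Tubb4b was 0.94 against B and 1.48 against C, and -0.45 and 0.14 without the cell cycle limit. Monocyte and interstitial macrophage markers summed to 1834, 629 and 390.4 CPM, of which Lyz1 and, in library A, Apoe held most. Endothelial markers summed to 97.6, 19.8 and 28.2 CPM, with Pecam1 at 88.7, 1.25 and 0.268 CPM. Against C, 1 of their 2 measured members was higher in library A and 1 was lower (log2 fold -1.59). Pan-leukocyte markers summed to 1.12, 0.781 and 0.469 CPM with 1, 3 and 3 of 5 at 0, alveolar macrophage markers to 26.6, 18.4 and 5.42 CPM and fibroblast markers to 45.9, 19.2 and 16.1 CPM. Goblet, basal, neuroendocrine, T and NK, smooth muscle, mesothelial and erythroid markers had no member at 20 CPM in any set, and Cd79b was the only B cell marker above it, at 25.9, 62.2 and 65.7 CPM. After leaving out every cell of library A with a UMI of Scgb1a1, Sec14l3 or Pecam1, 2970 cells remained, and 1720 genes were higher and 1107 lower against B and 1788 higher and 1153 lower against C. The median log2 fold of the surfactant list was then 2.25 against B and 2.01 against C, and that of the glycolysis list -3.20 and -3.21.

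The B set and the C set differed in few genes, and these are values of 2 libraries. Camk1d, a calcium-dependent kinase, stood at 583 CPM in the B set and 15.5 CPM in the C set (log2 fold 5.14). Its level in library A lay between them, at 246 CPM. Chil4 and Chia1, both named above, were higher in the B set (log2 folds 4.40 and 3.59), and so was Traf5, an adaptor of TNF receptors, at 71.1 against 7.899 CPM. Gm42418, which overlaps a ribosomal RNA repeat, was at 6141 against 1018 CPM. Lower in the B set were Cbr2, at 12.03 against 68.01 CPM, Gpx4, a peroxidase of membrane lipids, at 194 against 705 CPM, and Rpl35, at 449 against 1924 CPM. Gpx4, Rpl35, Rpl10 and Eno1 share between 72.4% and 93.7% of their end words with copies, and how the authors' counting divided such reads was not tested. Between the B set and the C set, surfactant genes had 0 of 20 members 2-fold apart, glycolysis and hypoxia genes 1 of 26 and cholesterol genes 0 of 11. The counts of these lists are near the background of 2.94% of genes. Other lists lay further from it. Higher in the B set were 4 of 11 protein-coding genes of the mitochondrial genome and 2 of 5 interferon-stimulated genes. So were 2 of 6 IL-4 and IL-13 response genes and 2 of 8 chemokine genes. In each of these lists 0 were lower.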

How the data were processed

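Per the labels' protocols, cells were measured with 10x Genomics 3 prime chemistry v3.1 and cell multiplexing. The authors deposited 1 matrix of raw UMI counts per gene and barcode, whole numbers with no normalization. The submitters' processing notes name bcl2fastq, Cell Ranger 6.0.1 and the builds GRCm38 and mm10, and the cell calling, doublet removal and treatment of reads shared between genes are not given in the sources used here. The matrix held 52636 features and 36584 barcodes. Gene IDs were matched to GENCODE vM21 symbols (52489 IDs), and the 147 unmatched IDs held 0.0098% of UMIs. The tag libraries were not used here.

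Counts were summed over the cells of each set, scaled to 1000000 UMIs (CPM) and compared as log2 ratios after adding 1 CPM to both sides. Each side is 1 library, so no test was possible. Intervals are 95% exact Poisson for CPM, exact conditional for ratios without the pseudocount, and exact binomial for shares, and a count of 0 was taken to allow 3 counts. Deep cells weigh more in summed counts, and 3 prime counts do not scale with gene length, so genes are ranked within a set by their UMIs. Shares of cells were taken after thinning each cell to 1000 UMIs (seed 11), which left out no cell. No doublet caller was run. The calculation was checked on simulated counts with known folds, drawn from the proportions of library A. These counts held counting error only, so they do not bear on differences between cells or between the libraries as preparations. Software was scipy 1.17.1, numpy 2.4.6 and pandas 2.3.3 under Python 3.11.15, matplotlib 3.10.9 and, for TMM factors only, edgeR 4.0.16 in R 4.3.3.

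The members and the 55 gene lists were chosen with earlier results of these data known. Named genes are the markers and the genes of the rule, up to 4 members of each list past the size rule in the same direction in both comparisons and members against it, the 15 genes at 50 CPM or more with the largest smaller difference each way, the 10 most abundant genes of each set, the 8 highest and 8 lowest of B against C, and the top marker of each other cell type. The alternatives concerned scaling, pseudocount, expression and depth minimums, Retnla and cell cycle limits, thinning, deep cells and mitochondrial share. Added after seeing the data were totals without mitochondrial, ribosomal protein and Sftpc counts, and library A without cells holding a UMI of Scgb1a1, Sec14l3 or Pecam1.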

Additional observations from a re-analysis of the deposited data

Results flagged for a closer look

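Camk1d, which encodes a calcium- and calmodulin-dependent kinase, was the one gene past the size rule in opposite directions in both comparisons. It held 246 CPM in library A (242 to 249.8), 583 CPM in the B set (565 to 602) and 15.5 CPM in the C set (13.6 to 17.7). Its log2 fold was -1.24 for library A against the B set and 3.90 for library A against the C set. With 1 library a side the difference between these values was not tested.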

How the results depend on the processing

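In all, 18 other settings were applied to the counts, list medians and named genes, and some gave no value for a list or gene (64 of 73 medians had one at 100 CPM). All 8 folds of Retnla, Lyz2, Hc and Gapdh stayed past 2-fold in the same direction in each of them. Those of Retnla are a description only, since the rule used that gene. Without the Retnla limit they were -8.69 against B and -9.63 against C. Between 37 and 44 list medians were past 2-fold, against 42, although the number of lists with 3 measured members differed between settings. With the 20 most abundant genes left out of the totals, 2735 genes were higher in A than in B and 2813 higher than in C. At 5 CPM instead of 20, 4599 genes differed between A and B (2924 higher) and 4715 between A and C (2976 higher), and 295 between B and C (199 higher, 96 lower). At 100 CPM the numbers were 1001 (463 higher, 538 lower), 987 (463 higher, 524 lower) and 40 (33 higher, 7 lower). For B against C, thinning every cell to 1000 UMIs gave 243 genes (176 higher, 67 lower), dropping the Retnla limit 75 lower, and leaving mitochondrial, ribosomal protein and Sftpc counts out of the totals 65 lower.

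The selected shares followed the Retnla limit: 98.0%, 15.1% and 28.0% of A, B and C at 0.0005, and 98.7%, 21.5% and 34.3% at 0.002. Applying the rule after thinning gave 98.2% of A and 30.0% of C, and a minimum of 2000 UMIs gave 31.5% of C. Of values at least 2-fold apart, those that turned in direction were the median of the CDK inhibitor, p53 and senescence list against C (0.19) and of the cell cycle list against C (0.62) at 100 CPM, the latter also with 10 cell cycle genes excluded (1.13). The IL-4 list median against C (-0.90), C3 against B (-0.39) and Chia1 against C (-1.36) turned without the Retnla limit. Without the cell cycle limit Mki67 (-4.46 and -3.77) and Top2a (-5.25 and -4.91) turned against B and C, since the rule itself had set them to 0. Smaller values turned too. They included Cdk1 (-5.74 and -5.52), Ccnb1 (-4.43 and -4.59) and the cell cycle list against B (-4.34) without the cell cycle limit, Chia1 (-1.65) and the complement list (-0.39) against B and the imprinted list against C (-1.61) without the Retnla limit, and the IL-4 list against B at 100 CPM (-1.58). Except for the genes of the rule, the cause was not tested. No paired analysis was possible because every group has 1 library and the tokens carry no replicate number.

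Depth limits the B set most, where 1 UMI of the summed 6399889 is the smallest step and genes under 20 CPM were not counted.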

Other observations

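Sex-linked transcripts were read as values of pooled mice. At full depth, cells with a UMI of a Y-linked gene and none of Xist were 41.5% of library A, 45.4% of the B set and 28.7% of the C set, and cells with Xist and no Y-linked UMI were 0.208% of library A, 0 of 1049 cells of the B set, which allows a share of up to 0.286%, and 0.0209% of the C set. The Y-linked genes did not share an order: Ddx3y, an RNA helicase, held 67.1, 19.4 and 19.1 CPM and Uty, a histone demethylase homologue, 51.9, 19.5 and 20.8 CPM, while Eif2s3y, a translation factor, held 31.8, 65.2 and 67.1 CPM.

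Genes of immune type known from epithelium included wide differences both ways. Ptgs2, the inducible cyclooxygenase, stood at 191, 5.94 and 2.21 CPM, and Ptges, which makes prostaglandin E2 from its product, at 17.3, 142 and 135 CPM. Cd200, a ligand that restrains myeloid cells, was at 172, 32.03 and 22.4 CPM, Tlr4, the endotoxin receptor, at 29.1, 8.44 and 7.899 CPM and its co-receptor Cd14 at 19.6, 67.7 and 61.9 CPM. Ptgs2 and Ptges thus differed in opposite directions between library A and the other sets, as did Tlr4 and Cd14. Among imprinted genes, Plagl1, a zinc finger factor, was at 31.4, 4.22 and 5.15 CPM and the noncoding RNA Meg3 at 8.25, 83.9 and 32.00 CPM.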
